A study of Homo sapiens with 20 samples.

Results

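The comparison described here is DOHH2 cells exposed for 8 h to the compound labelled TK against DOHH2 cells exposed for 8 h to DMSO, the solvent control. Its members are the 3 TK and 3 DMSO libraries whose titles give that line, treatment and time, 6 of the 20 libraries in all. Each library is RNA-seq of polyadenylated RNA, read out as a count for each gene. DOHH2 and U2932 are human B cell lines that the labels class as diffuse large B-cell lymphoma (DLBCL), and the study treated both with TK or DMSO for 8 or 18 h. The labels give no dose and no structure for TK. Both groups were DOHH2 cells collected at 8 h and differed in the treatment label alone. The groups set beside them are DOHH2 at 18 h (3 TK and 2 DMSO libraries) and U2932 at 8 h (2 TK and 3 DMSO libraries). Nothing in the labels tells if the replicates of a group were grown as separate cultures. The p-values therefore rest on library-to-library variation, which could be technical.

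As background, cells of a growing lymphoma line pass through the cell cycle without synchrony, and the RNA of many genes follows the phase. Genes for mitosis, such as cyclin B, the anaphase regulators and the spindle motors, are read mostly in G2 and M phase, and genes for DNA synthesis mostly at the G1 to S transition. Promoters of the first kind often carry a CHR element beside CCAAT boxes, to which the DREAM complex, B-MYB, FOXM1 and NF-Y are linked, and promoters of the second kind often carry an E2F site. The tumour suppressor p53 acts in part through its targets, among them MDM2, CDKN1A and SESN1. In bulk RNA, fewer cells in a phase and less RNA for a gene per cell cannot be told apart.

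The 6 libraries held 31010685 to 46098646 counts in genes. Replicate 1 of TK stood apart from the other 5 in its mitochondrial counts and in its counts outside genes. Mitochondrial genes took 3.29% of its counts against 5.82 to 6.49% in the others, and 4.93% of all its counts fell outside any gene against 6.26 to 7.37%. Results are therefore also given without TK replicate 1. In limma voom, a fit that weights libraries by quality, the weight was 0.325 for TK replicate 1 and 0.332 for TK replicate 3. It was 1.70 for TK replicate 2 and 0.462 to 1.44 for the DMSO libraries, so TK replicate 1 was not alone in its low weight. CD79A, a B cell marker, was present in all 6 libraries, at 411 to 659 CPM (the count scaled to library size). The summed CPM of the T cell markers stayed at 0.757 to 1.06, of the monocyte markers at 0.0326 to 0.979 and of the epithelial markers at 0.299 to 1.09, with CD3D and CD3G at 0 counts in every library. The fibroblast and endothelial markers summed to 11.7 to 32.2 CPM, most of it COL1A1, a collagen gene, at 9.91 to 29.2 CPM and highest in replicate 1 of both groups. Its part in the results was not tested. DOHH2 is usually placed in the germinal centre class of DLBCL and U2932 in the activated B cell class. Of the germinal centre markers, BCL6 stood at 0 to 0.358 CPM in the 6 libraries and at 384 to 409 CPM in the 5 U2932 libraries at 8 h, and MYBL1 and LMO2 were likewise under 1 CPM in DOHH2 and above it in U2932. GCSAM (142 to 177 CPM) and MME (18.4 to 34.2 CPM) were present in DOHH2, against 49.4 to 54.9 and 38.4 to 54.0 CPM in U2932. IRF4, an activated B cell marker, was at 795 to 922 CPM in DOHH2 and 326 to 420.3 CPM in U2932, and the plasma cell gene SDC1 at 440 to 594 and 1.52 to 2.74 CPM. Of the other activated B cell markers, PIM1 and FOXP1 were higher in U2932, CD44 and CCND2 were higher in DOHH2, and BATF overlapped. BCL6, MYBL1, LMO2, IRF4 and SDC1 thus go against the usual classes of both lines. Whether the line names were exchanged was not tested, so DOHH2 and U2932 below mean the libraries so labelled. TK and DMSO are compared within a label.

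At 8 h no gene passed the test. Of 16478 genes kept, 0 (0%) reached an adjusted p under 0.05 (edgeR, quasi-likelihood F test, Benjamini-Hochberg), and the lowest adjusted p was 1. DESeq2 and limma voom also called 0 genes. With no filter on low counts, edgeR called 32 genes, 31 of which the filter keeps, so the count of 0 depends on the filter. At an unadjusted p under 0.05 there were 497 genes (3.02%), of which 223 (1.35%) were higher and 274 (1.66%) lower with TK. The 3 TK libraries lay wholly above the 3 DMSO libraries for 447 genes (2.71%) and wholly below them for 470 (2.85%), 917 (5.56%) in all, and these shares are the background for the counts that follow. The log2 change was positive for 8627 genes (52.4%). Leaving out TK replicate 1 gave 0 calls and left 1340 genes (8.13%) wholly above and 1166 (7.08%) wholly below, now with 2 TK libraries. Leaving out TK replicate 3 instead also gave 0 calls, with 1979 of the 16478 genes wholly above and 1688 wholly below. The direction of single genes below is that of their libraries, and none is a call. With 3 libraries a group that were interchangeable, a larger share of genes than the 5.56% seen would be expected to lie wholly apart. Separation alone is therefore no sign of an effect of TK. Groups separate more easily with 1 library fewer, so the higher counts without a library are no sign of one either.

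The precision of the comparison bounds what could have been missed. Over the 9714 genes with a mean of at least 5 CPM, the median size of the log2 change was 0.078 and its median standard error (SE) 0.15. For 99.4% of these genes the 95% interval of the change lay within 2-fold in both directions, and for 88.6% within 1.5-fold. The estimated change of 4 of them was past 2-fold, and in 0 of those 4 were the groups apart. Over all 16478 genes the interval lay within 2-fold for 75%. A 2-fold change of a well-expressed gene would thus lie outside the intervals of nearly all genes, while of the 6764 genes under 5 CPM 40.1% had an interval within 2-fold.

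Several genes of mitosis were among those whose groups were apart. They are shown first by the promoters of 5 genes higher with TK and of 1 gene lower with TK, since their CHR, CCAAT and E2F motifs are the sequence features linked to cell-cycle timing. Sequences are the RefSeq promoters in GRCh38.p14, from 250 bases before to 50 bases after the annotated start, 5′ to 3′ on the gene's strand. Capitals mark every match to the 3 motifs, on either strand.
CCNB1: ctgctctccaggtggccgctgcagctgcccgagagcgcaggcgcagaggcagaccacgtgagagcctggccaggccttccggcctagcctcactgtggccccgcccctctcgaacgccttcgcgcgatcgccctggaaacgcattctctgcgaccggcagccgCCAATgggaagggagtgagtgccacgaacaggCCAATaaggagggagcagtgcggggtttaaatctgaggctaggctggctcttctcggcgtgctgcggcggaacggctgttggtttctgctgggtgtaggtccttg
PTTG1: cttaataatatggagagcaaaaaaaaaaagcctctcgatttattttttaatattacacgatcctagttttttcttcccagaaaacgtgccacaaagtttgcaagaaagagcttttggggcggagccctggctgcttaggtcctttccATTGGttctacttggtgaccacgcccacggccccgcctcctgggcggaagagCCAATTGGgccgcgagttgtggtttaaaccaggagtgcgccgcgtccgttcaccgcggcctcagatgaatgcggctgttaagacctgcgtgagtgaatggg
CDC20: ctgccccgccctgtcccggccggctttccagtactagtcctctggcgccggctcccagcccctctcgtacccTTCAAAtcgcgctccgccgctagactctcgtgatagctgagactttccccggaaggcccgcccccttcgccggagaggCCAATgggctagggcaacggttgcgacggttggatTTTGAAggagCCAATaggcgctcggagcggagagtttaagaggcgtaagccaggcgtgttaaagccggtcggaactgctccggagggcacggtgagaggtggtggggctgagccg
PSRC1: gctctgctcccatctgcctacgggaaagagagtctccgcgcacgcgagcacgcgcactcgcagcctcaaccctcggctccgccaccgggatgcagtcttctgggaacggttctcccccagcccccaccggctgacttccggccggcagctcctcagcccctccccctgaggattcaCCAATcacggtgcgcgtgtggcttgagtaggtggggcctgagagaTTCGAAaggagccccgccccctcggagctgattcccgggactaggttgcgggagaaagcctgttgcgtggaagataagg
CENPA: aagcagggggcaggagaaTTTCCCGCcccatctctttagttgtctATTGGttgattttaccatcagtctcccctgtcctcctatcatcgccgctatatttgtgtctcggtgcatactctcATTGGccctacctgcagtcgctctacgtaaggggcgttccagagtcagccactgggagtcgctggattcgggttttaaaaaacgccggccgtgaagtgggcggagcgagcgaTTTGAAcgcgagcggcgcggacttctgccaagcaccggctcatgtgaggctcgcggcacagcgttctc
UHRF1: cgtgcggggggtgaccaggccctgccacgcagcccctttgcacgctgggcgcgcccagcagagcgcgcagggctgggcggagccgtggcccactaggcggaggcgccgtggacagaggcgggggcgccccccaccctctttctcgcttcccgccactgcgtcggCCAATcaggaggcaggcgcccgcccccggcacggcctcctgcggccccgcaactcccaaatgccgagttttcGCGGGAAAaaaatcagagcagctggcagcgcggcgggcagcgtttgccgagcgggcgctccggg
The CCNB1 window (chr5:69166900-69167199, plus strand) holds 2 CCAAT boxes, at -87 and -55 from the start, and no CHR match. The PTTG1 window (chr5:160421605-160421904, plus strand) holds 3 matches to CCAAT or its reverse complement ATTGG, of which the last 2 overlap, and no CHR match. The CDC20 window (chr1:43358731-43359030, plus strand) holds 2 CHR matches and 2 CCAAT boxes. The PSRC1 window (chr1:109283096-109283395, minus strand) holds 1 CHR match (TTCGAA, at -29) and 1 CCAAT box. The CENPA window (chr2:26785806-26786105, plus strand) holds 1 CHR match at -18, 2 CCAAT boxes and 1 E2F match (TTTCCCGC, at -232). In the UHRF1 window (chr19:4909251-4909550, plus strand) the capitals mark an E2F match, GCGGGAAA, at -14 and a CCAAT box at -86.

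The motifs were searched as exact letters on both strands: TTTGAA or TTCGAA for CHR, CCAAT for the CCAAT box, and TTTCCCGC, TTTCGCGC, TTTGGCGC or TTTGCCGC for E2F. Of 35116 promoters of 300 bases, 16.4% held a CHR match, 34.6% a CCAAT box and 3.31% an E2F match. Among the kinesin genes, 10 of 13 promoters held a CHR match, and among the centromere genes 13 of 18. The mitotic entry list had 8 of 15 and the list of checkpoint and anaphase genes 9 of 17. An E2F match was held by 2, 2, 2 and 1 promoters of the mitotic entry, checkpoint, centromere and kinesin lists. The DNA replication list had a CHR match in 2 of 33 promoters and an E2F match in 18 of 33. A match is a string of letters, and binding was not measured.

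Genes that drive entry into mitosis were mostly at a higher level with TK. CCNB1, the B-type cyclin that activates CDK1 (chr5:69167010-69178245, plus strand, GENCODE v29), stood at 150.3, 124 and 146 CPM in DMSO replicates 1 to 3 and at 239, 178 and 199 CPM in the TK replicates. All 3 TK libraries were above all 3 DMSO libraries, with a log2 change of 0.55 (SE 0.15, unadjusted p = 0.00132), or 1.47-fold. CCNB2, its close relative, was at 89.5, 70.9 and 87.9 CPM in DMSO and 121, 92.4 and 106 CPM in TK, also without overlap (log2 change 0.36, SE 0.18). PLK1, a kinase of mitotic entry and spindle assembly, was at 108, 111 and 136 CPM in DMSO and 155, 139.8 and 137 CPM in TK, where the lowest TK value exceeded the highest DMSO value by a small margin. AURKA, the centrosome kinase, and its activator TPX2 had overlapping groups and log2 changes of 0.41 (SE 0.16) and 0.33 (SE 0.15). CDK1 itself was at 131, 81.8 and 87.5 CPM in DMSO and 110.0, 103 and 122 CPM in TK, with a log2 change of 0.16 (SE 0.25). Of the 20 genes of the list, 17 had a positive change, 3 (15% against 2.71% of all genes) were wholly above and 0 wholly below. The median log2 change was 0.16 against 0.0092 over all genes. Without TK replicate 1, 3 were still wholly above, now against 8.13% of all genes. The median was then 0.13 and 15 of 20 were positive. Over the left-out libraries the median ran from 0.056 (without DMSO replicate 2) to 0.27 (without DMSO replicate 1).

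Regulators of the spindle checkpoint and of anaphase followed the same order. PTTG1, the securin that holds separase until anaphase (chr5:160421822-160428744, plus strand), had 85.5, 58 and 60.2 CPM in DMSO and 149, 98.8 and 91.9 CPM in TK. Its log2 change of 0.74 (SE 0.21, unadjusted p = 0.00239) was 0.49 without TK replicate 1, the highest of the 3 TK libraries. CDC20, the activator of the anaphase-promoting complex (chr1:43358955-43363203, plus strand), had 189.7, 136 and 179.6 CPM in DMSO and 292, 205 and 199 CPM in TK, with a log2 change of 0.46 (SE 0.20), or 0.26 without TK replicate 1. UBE2S, the enzyme that extends ubiquitin chains for that complex, had 348, 323 and 384 CPM in DMSO and 627, 452 and 385 CPM in TK. Its groups are apart by the narrowest of margins, since TK replicate 3 lay just above the highest DMSO library, and its log2 change of 0.47 (SE 0.18) was 0.25 without TK replicate 1. UBE2C, the enzyme that starts those chains, had overlapping groups and a log2 change of 0.034 (SE 0.19). In this list 17 of 21 changes were positive, 3 genes (14.3% against 2.71% of all genes) were wholly above and 0 below. Without TK replicate 1, 3 were still wholly above, now against 8.13% of all genes. The median was 0.12 (0.15 without TK replicate 1). It was 0.077 without DMSO replicate 2 and 0.28 without DMSO replicate 1.

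For each of the 13 kinesin motors of the mitotic spindle the estimated change was above 0, their median log2 change was 0.19, and 1 of them, KIF4A, had groups that were apart. Without TK replicate 1, 12 of 13 were positive and the median was 0.11. It was 0.031 without TK replicate 3 and 0.31 without DMSO replicate 1. KIF4A, a chromosome-bound motor, was at 37.2, 31 and 36.1 CPM in DMSO and 48.7, 37.3 and 40.9 CPM in TK (log2 change 0.28, SE 0.17). Of 22 centromere and kinetochore genes, 13 were positive and CENPA, the histone variant that marks centromeres, was wholly above, at 30.7, 22.1 and 24.8 CPM in DMSO and 35.1, 33.5 and 36.1 CPM in TK (log2 change 0.43, SE 0.17). The median of the centromere list was 0.069, and without TK replicate 1 it was -0.037, with 10 of 22 positive. It ran from -0.075 (without DMSO replicate 2) to 0.23 (without DMSO replicate 1). TROAP, a spindle-associated protein, had 86.7, 68.7 and 76 CPM in DMSO and 121, 99.7 and 93.9 CPM in TK (log2 change 0.44, SE 0.15). PSRC1, a microtubule-binding protein of the spindle, had 4.82, 5.26 and 5.78 CPM in DMSO and 9.18, 7.64 and 7.08 CPM in TK (log2 change 0.59, SE 0.22). CEP70, a centrosomal protein, had 5.76, 5.52 and 5.1 CPM in DMSO and 8.2, 6.32 and 8.48 CPM in TK (log2 change 0.49, SE 0.17). TACC3, which stabilises kinetochore fibres, was also wholly above, at 228, 178 and 217 CPM in DMSO and 343, 231 and 236 CPM in TK.

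**Figure D1:**
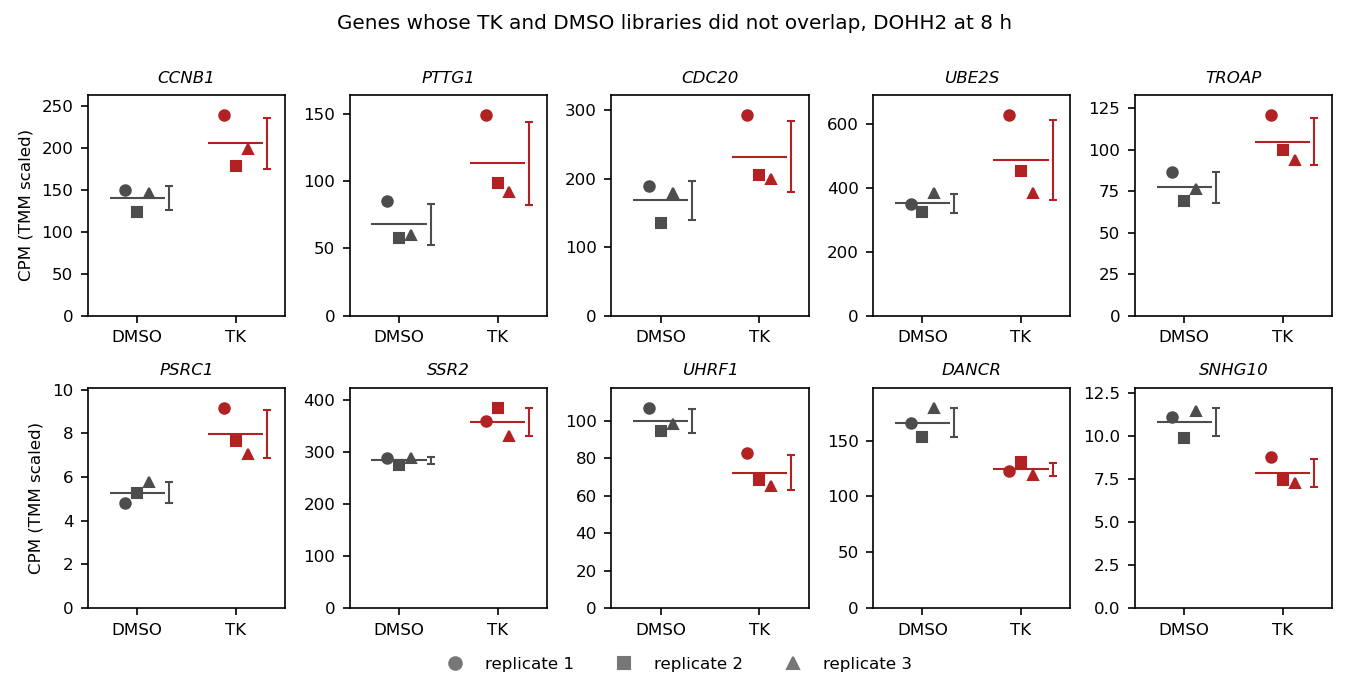
Level in CPM (vertical axes, from 0, TMM scaled) of 10 genes in each DMSO and TK library of DOHH2 at 8 h; each symbol is 1 library, horizontal lines are means of 3 libraries and bars their SD. In each panel the 3 TK libraries lie on 1 side of the 3 DMSO libraries, above them for the first 7 genes and below them for UHRF1, DANCR and SNHG10.

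The lists as wholes were less separate than these genes. For each library, the median over a list of log2 CPM minus the DMSO mean was taken. For mitotic entry it was 0.19, -0.20 and 0.031 in the DMSO libraries and 0.38, 0.044 and 0.26 in the TK libraries. TK replicate 2 lay below DMSO replicate 1, so the groups overlapped. For the kinesins the DMSO values were 0.21, -0.25 and 0.032, and the TK values 0.31, -0.20 and 0.29. Replicate 2 was the lowest of its group in both. In both lists each TK library lay above the DMSO library of its number. This was not so for the centromere list, where replicate 2 was at -0.29 with TK and -0.26 with DMSO. The labels do not say what a replicate number marks. The library medians of the 2 groups overlapped in every one of the 41 lists.

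**Figure D2:**
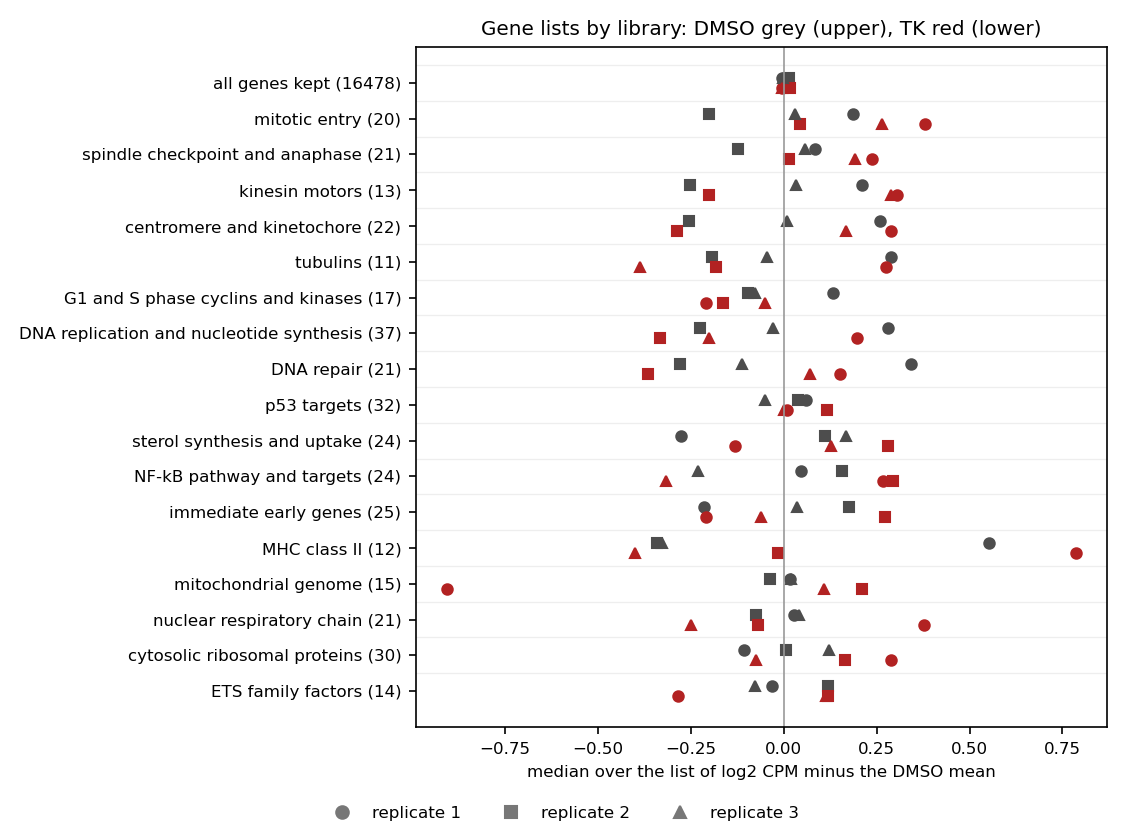
Median over each gene list (number of genes kept in brackets) of log2 CPM minus the mean of the 3 DMSO libraries (horizontal axis), with DMSO libraries in grey and TK libraries in red, 1 symbol for each replicate number. The groups overlap in every list shown, replicate 1 lies highest of its group in MHC class II (0.55 with DMSO, 0.79 with TK), and TK replicate 1 lies apart for the mitochondrial genome at -0.91.

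Most genes for DNA synthesis had a negative change with TK, and the genes for entry into S phase went both ways. UHRF1, which reads hemimethylated DNA for maintenance methylation (chr19:4903080-4962154, plus strand), had 107, 94.5 and 98.4 CPM in DMSO and 83, 68.6 and 65.4 CPM in TK. All TK libraries were below all DMSO libraries, with a log2 change of -0.47 (SE 0.14, unadjusted p = 0.00352) and of -0.58 without TK replicate 1. CCNE1, the cyclin E that drives S-phase entry, was also wholly below, at 19.3, 17.1 and 18.8 CPM in DMSO and 13.4, 15.9 and 11.6 CPM in TK (log2 change -0.43, SE 0.17). CCNE2, the second cyclin E, was at 20.4, 11.6 and 12.1 CPM in DMSO and 8.07, 10.3 and 12.3 CPM in TK, with overlap (log2 change -0.52, SE 0.23). Without DMSO replicate 1, its highest library, the change was -0.22. CCND1, cyclin D1, was wholly above with TK but weakly expressed, at 0.26, 0.156 and 0.108 CPM in DMSO and 0.781, 0.336 and 0.418 CPM in TK (log2 change 1.55, SE 0.68). CCND3, cyclin D3, had overlapping groups and a log2 change of -0.0012 (SE 0.17). Of 17 G1 and S phase cyclins and kinases 11 were negative, 1 was wholly above and 1 wholly below. Their median was -0.07, and 0.0023 without DMSO replicate 1. MCM4, a subunit of the replicative helicase, had 456, 377 and 420.4 CPM in DMSO and 381, 300.1 and 377 CPM in TK, again with overlap. PCNA, the sliding clamp, and RRM2, a subunit of ribonucleotide reductase, had log2 changes of -0.12 (SE 0.17) and -0.17 (SE 0.22), and both turned positive without DMSO replicate 1. In the list of DNA replication and nucleotide synthesis, 33 of 37 changes were negative, 1 gene (UHRF1) was wholly below and 0 above, and the median was -0.12. That median moved as single libraries were left out, to 0.069 without DMSO replicate 1. Without TK replicate 1 it was -0.29, and 11 of 37 genes (29.7%) were wholly below against 7.08% of all genes. The library medians were 0.28, -0.23 and -0.028 in DMSO replicates 1 to 3 and 0.20, -0.33 and -0.20 in the TK replicates. Each TK library lay below the DMSO library of its number. A fit without 1 library compares unlike sets of replicate numbers. The DNA repair list had 15 of 21 negative changes, 0 genes apart in either direction and a median of -0.071. That median took either sign, at -0.19 without DMSO replicate 2 and 0.12 without DMSO replicate 1.

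Tubulin genes, whose RNA is degraded by the cell when free tubulin is abundant, had negative changes in 10 of 11, with 0 apart in either direction. TUBA1B, the main alpha-tubulin gene, had 1207, 853 and 938 CPM in DMSO and 926, 784 and 756 CPM in TK, so that TK replicate 1 lay above DMSO replicate 2 (log2 change -0.28, SE 0.17). TUBA1C had overlapping groups and a log2 change of -0.18 (SE 0.15). TUBB, a beta-tubulin, ranged more widely in DMSO (545, 202 and 308 CPM) than with TK (392, 311 and 322 CPM), and its log2 change of -0.041 (SE 0.23) took either sign when single libraries were left out. The median of the tubulin list was -0.11, -0.35 without TK replicate 1 and 0.061 without TK replicate 3. Tubulin genes share reads with near-identical copies, so values of single members are uncertain. Of 16 tubulin cofactors and microtubule regulators, 4 (25%) were wholly above, against 2.71% of all genes, and 0 were below. Those above were TACC3, TBCA and TBCE (2 tubulin-folding cofactors) and MAPRE1 (the plus-end protein EB1). In this list 10 changes were positive and 6 negative, the median was 0.11, and 0 genes had an unadjusted p under 0.05. Without TK replicate 1, 4 were wholly above and 1 wholly below, against 8.13% and 7.08% of all genes.

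The other genes named for a small p or a large change were of several kinds. Higher with TK was SSR2, a subunit of the translocon-associated complex of the endoplasmic reticulum, at 288, 276 and 288 CPM in DMSO and 359.6, 385 and 330.1 CPM in TK (log2 change 0.34, SE 0.11). The DMSO libraries of SSR2 lay close together and the change was 0.33 without TK replicate 1. APOPT1, a mitochondrial protein of cytochrome c oxidase assembly, was at 21.1, 16.7 and 18.7 CPM in DMSO and 26.9, 24.9 and 22.9 CPM in TK (log2 change 0.41, SE 0.12). The kinase STK17A, the DNA end-joining factor XRCC4 and TTC27 had log2 changes of 0.34 (SE 0.12), 0.38 (SE 0.14) and 0.27 (SE 0.10). GTF2IP4 had a log2 change of 0.46 (SE 0.15) but is a pseudogene of GTF2I, with which it can share reads. HLA-C, a class I antigen-presenting gene, had a wider change, 0.77 (SE 0.72), that rested on 1 library, with 80.3, 89.3 and 82.3 CPM in DMSO and 91.1, 102 and 236 CPM in TK. Without TK replicate 3 it was 0.20.

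Of the genes of at least 5 CPM that lay wholly below DMSO, the lowest unadjusted p-values were those of 2 long non-coding RNAs, DANCR and SNHG10. DANCR, a host transcript of small nucleolar RNA (chr4:52712404-52720351, plus strand), had 166, 153 and 179.6 CPM in DMSO and 123, 131 and 119.5 CPM in TK. The TK libraries were closer together than the DMSO ones and wholly below, with a log2 change of -0.42 (SE 0.11, unadjusted p = 0.00139) that ran from -0.47 to -0.36 as each library was left out. SNHG10, another such host transcript (chr14:95532297-95534872, minus strand), had 11.1, 9.89 and 11.5 CPM in DMSO and 8.79, 7.47 and 7.26 CPM in TK (log2 change -0.47, SE 0.14). SNHG12 had 150.1, 136 and 144 CPM in DMSO and 129, 117 and 103 CPM in TK, wholly below as well (log2 change -0.30, SE 0.15). PAXIP1-AS1, PP7080 and AC245452.1 had log2 changes of -0.43 (SE 0.15), -0.39 (SE 0.13) and -0.37 (SE 0.14). SNHG10, SNHG12 and AC245452.1 are annotated as antisense, and PAXIP1-AS1 is antisense by name. The strand setting of the counting is not given, so whether their reads were counted apart from those of the opposite strand is not known. Of 15 nuclear long RNAs and microRNA hosts on the list, 1 (SNHG12) was wholly below and 0 above, with a median of -0.017.

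Protein-coding genes in the same direction included PAQR4, a membrane protein of the progestin and adipoQ receptor family, at 47.5, 39.2 and 40.2 CPM in DMSO and 35.3, 33.6 and 24.6 CPM in TK (log2 change -0.44, SE 0.15). ALDH3A2, the fatty aldehyde dehydrogenase, had 17, 17.2 and 17.1 CPM in DMSO and 13.9, 13 and 14.4 CPM in TK (log2 change -0.31, SE 0.11). MPPE1, a phosphoesterase of GPI-anchor remodelling, had a log2 change of -0.32 (SE 0.12), and ZBTB14, a zinc finger factor, one of -0.31 (SE 0.12). LYSMD4, TMCO6 and FAM222A had changes of -0.43 (SE 0.16), -0.31 (SE 0.12) and -0.60 (SE 0.27). All of these were wholly below the DMSO libraries, as the rule that named them required.

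Targets of p53 showed small differences at 8 h. Of 32 listed targets 22 had a positive change, 1 (MDM2) was wholly above and 0 below, and the median was 0.086 (0.056 without TK replicate 1 and 0.026 without DMSO replicate 3). MDM2, the ubiquitin ligase that restrains p53, had 192, 181 and 189 CPM in DMSO and 204, 193 and 233 CPM in TK (log2 change 0.17, 95% interval -0.096 to 0.43). CDKN1A, the CDK inhibitor p21, had 402, 276 and 256 CPM in DMSO and 476, 327 and 242 CPM in TK, highest in replicate 1 of both groups. SESN1, a stress-induced inhibitor of mTORC1 signalling, had 13.9, 14.5 and 12.3 CPM in DMSO and 13, 13.1 and 14.2 CPM in TK, with a log2 change of -0.02 and a 95% interval of -0.29 to 0.25. BBC3, the BH3-only protein PUMA, had 15.7, 16.7 and 15.4 CPM in DMSO and 26.2, 21.6 and 14.8 CPM in TK, where 2 TK libraries lay above and 1 below the DMSO libraries (log2 change 0.39, SE 0.22).

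In the BCL2 family 1 of 16 genes was apart, the pro-apoptotic BID, at 85.1, 103 and 102 CPM in DMSO and 82.1, 83.8 and 67.5 CPM in TK (log2 change -0.32, SE 0.13). BAK1, a pore-forming effector, had overlapping groups (log2 change 0.25, SE 0.12). BCL2 and MCL1, anti-apoptotic members, had changes of 0.14 (SE 0.19) and -0.0082 (SE 0.13). Among 16 linker and core histone genes 2 (12.5% against 2.71% of all genes) were wholly above. Without TK replicate 1, 2 were wholly above and 2 wholly below, against 8.13% and 7.08% of all genes. H1F0, the replacement linker histone, had 1.79, 1 and 0.864 CPM in DMSO and 3.06, 2.27 and 2.9 CPM in TK. That was 2.28-fold, with a log2 change of 1.19 (SE 0.43, unadjusted p = 0.0122), at a level near 1 CPM in DMSO. HIST1H2AC, a core histone gene, had 3.61, 4.25 and 4.16 CPM in DMSO and 4.98, 6.07 and 5.88 CPM in TK (log2 change 0.49, SE 0.23).

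The 12 genes (0.0728%) that edgeR called in DOHH2 at 18 h, 11 of them higher with TK, gave a comparison with the later time, which uses other DMSO libraries. At 8 h, 6 of the 12 had a positive change, 2 (MDM2 and H1F0) had groups that were apart, and 1 (H1F0) had an unadjusted p under 0.05. Over all genes kept the shares were 52.4%, 5.56% and 3.02%, and the counts among the 12 were not tested against them. The log2 change of SESN1 was -0.02 (SE 0.13) at 8 h and 1.16 (SE 0.15) at 18 h. The difference between the times, 1.18 (SE 0.19), passed edgeR's test with an adjusted p of 0.0408. CYP4F3, a leukotriene and fatty acid hydroxylase, had 1.17, 1.38 and 1.27 CPM in DMSO and 1.04, 1.2 and 1.52 CPM in TK at 8 h, and log2 changes of -0.023 (SE 0.34) at 8 h and 3.59 (SE 0.42) at 18 h. Its difference of 3.62 (SE 0.53) had the same adjusted p of 0.0408. These 2 genes (0.0121% of those tested) were the calls for the difference. Both calls were lost when any 1 of the 6 libraries at 8 h was left out, with differences of 1.13 to 1.25 for SESN1 and of up to 3.78 for CYP4F3. They were also lost (adjusted p of 0.0518 for each) without replicate 1 of TK at 18 h, where the difference of CYP4F3 was 3.30. In that library 56.6% of all counts had no unique alignment.

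For the other genes of the late response the difference between the times did not pass. MDM2 had a log2 change of 0.17 (SE 0.13) at 8 h and 1.17 (SE 0.15) at 18 h, with an adjusted p of 0.205 for the difference. H1F0 had 1.19 (SE 0.43) and 4.39 (SE 0.52), with an adjusted p of 0.337. DESeq2 called the difference for both. NEAT1, a nuclear long RNA of paraspeckles, had 171, 169 and 163 CPM in DMSO and 156, 167 and 168 CPM in TK at 8 h, and its log2 changes were -0.034 (SE 0.12) at 8 h and 0.77 (SE 0.13) at 18 h. JUN, an immediate early transcription factor that was not called at 18 h, had 0.058 (SE 0.27) at 8 h and 1.16 (SE 0.32) at 18 h. For CCNB1 the changes were 0.55 (SE 0.15) at 8 h and -0.092 (SE 0.16) at 18 h, and for UHRF1 -0.47 (SE 0.14) and -0.61 (SE 0.16), with an adjusted p of 1 for either difference. At 18 h the medians of the mitotic entry, kinesin and centromere lists were -0.26, -0.22 and -0.32, with 0 genes positive in each, where the 8 h medians were positive. That of the p53 targets was 0.66, with 32 of 32 positive. Across the 9714 genes of at least 5 CPM, the 8 h and 18 h changes correlated with Pearson's r = 0.223 and Spearman's rho = 0.246, a description over genes that are not independent.

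**Figure D3:**
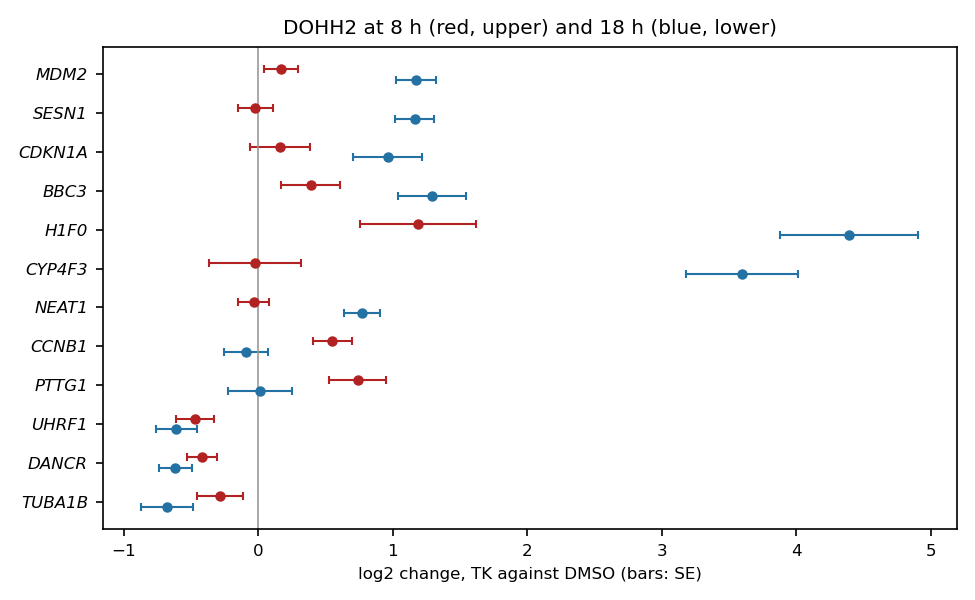
Log2 change with TK against DMSO (horizontal axis) of 12 genes in DOHH2 at 8 h (red, upper) and 18 h (blue, lower), from the fit of all 20 libraries; points are estimates and bars 1 SE to each side. MDM2, SESN1, CYP4F3 and NEAT1 lie between -0.034 and 0.17 at 8 h and between 0.77 and 3.59 at 18 h, while CCNB1 and PTTG1 lie at 0.55 and 0.74 at 8 h and at -0.092 and 0.016 at 18 h.

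Sterol synthesis genes had mostly positive changes without separating. Of 24 genes 20 had a positive change, 0 were apart in either direction, and the median was 0.15 (0.19 without TK replicate 1 and 0.047 without DMSO replicate 1). IDI1, the isopentenyl diphosphate isomerase, had 52.7, 62.5 and 69.8 CPM in DMSO and 63.4, 78.1 and 88.2 CPM in TK (log2 change 0.31, SE 0.14). Its groups overlapped, and replicate 1 was the lowest of its group under both treatments.

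Stress pathways and the machinery of protein synthesis gave few separated genes. ATF4, the transcription factor of the integrated stress response, was wholly above, at 390.2, 419 and 439.9 CPM in DMSO and 503, 527 and 464 CPM in TK (log2 change 0.26, SE 0.11). Of the 19 genes of its list, 13 were positive, ATF4 was the 1 that was apart, and the median was 0.036 (0.16 without TK replicate 3). DDIT3, the stress factor CHOP, and CTH, an enzyme of cysteine synthesis, had overlapping groups (log2 changes 0.13, SE 0.13, and 0.58, SE 0.24). HSPA5, the chaperone BiP, had 837, 727 and 915 CPM in DMSO and 1115, 799.7 and 1039.6 CPM in TK, and 0 of the 17 genes of endoplasmic reticulum folding were apart (median 0.11, and 0.034 without TK replicate 3). Of 30 cytosolic ribosomal protein genes 26 were positive, and 18 of 30 without TK replicate 1. RPS19 had 2102, 2109 and 2207 CPM in DMSO and 3698, 2628 and 2056 CPM in TK, and its log2 change of 0.39 (SE 0.17) was 0.13 without TK replicate 1. Ribosomal protein genes have many processed copies that can share reads. Of 23 splicing factors 4 were wholly above (17.4% against 2.71% of all genes) and 14 were negative. Those 4 were HNRNPC (log2 change 0.21, SE 0.10), SRSF3 (0.24, SE 0.13), TRA2B (0.095, SE 0.11) and SRSF7 (0.072, SE 0.11), all RNA-binding proteins. Without TK replicate 1, 5 splicing factors were wholly above (21.7% against 8.13% of all genes).

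The transcription factors of the B cell were little separated. Of 14 ETS family genes 9 were positive, with a median of 0.058 (-0.056 without TK replicate 3), and ETV6 was the 1 that was wholly above (81.9, 82.5 and 75.4 CPM in DMSO, 92.7, 92.6 and 83.2 CPM in TK). SPI1 and SPIB, ETS factors of B cells, had log2 changes of 0.20 (SE 0.18) and 0.14 (SE 0.20). ETS1 and FLI1 had 0.067 (SE 0.14) and 0.012 (SE 0.11), and the RNA-binding protein EWSR1 and the helicase DHX9 had 0.12 (SE 0.12) and 0.0038 (SE 0.1). IRF4, the lymphocyte factor of activated B and plasma cells, was wholly below, at 922, 834 and 857 CPM in DMSO and 805, 795 and 816 CPM in TK, by a log2 change of -0.11 (SE 0.12). In the list of 24 genes of the NF-kB pathway 19 were positive and 0 apart. NFKBIA, the inhibitor IkB-alpha, and NFKBIZ, an atypical relative, had log2 changes of 0.039 (SE 0.14) and -0.25 (SE 0.12). The median of that list was 0.11, and -0.019 with 11 of 24 positive without TK replicate 1.

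RNA of the mitochondrial genome moved with 1 library. Its 15 genes had a library median of -0.91 in TK replicate 1, against -0.038 to 0.02 in the DMSO libraries and 0.11 and 0.21 in the other TK libraries. MT-ND2, a subunit of complex I, had 3878, 2945 and 3451 CPM in DMSO and 1634, 3411 and 3233 CPM in TK. With all libraries 14 of 15 changes were negative (median -0.084), and without TK replicate 1 13 of 15 were positive (median 0.19). In the nuclear genes of the respiratory chain TK replicate 1 was instead the highest of the TK libraries, with 0.38 against -0.07 in replicate 2 and -0.25 in replicate 3.

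The spread between replicates was as large as the distance between treatments. Over all genes kept, the median SD of log2 CPM was 0.18 within DMSO and 0.27 within TK, and over the genes of at least 5 CPM it was 0.13 and 0.21. Between 2 libraries, the SD over genes of the log2 ratio was 0.198 to 0.303 for the 3 pairs of DMSO libraries and 0.327 to 0.474 for the 3 pairs of TK libraries. For the 9 pairs of a TK with a DMSO library it was 0.185 to 0.394. The closest of all 15 pairs was TK replicate 2 with DMSO replicate 2. On the first principal component (48.3% of the variance over 9714 genes) the DMSO libraries lay between -8.49 and 4.29, with TK replicates 1, 2 and 3 at 26.6, -1.53 and -18.9. The first component therefore ordered the TK libraries among themselves, with DMSO between them.

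**Figure D4:**
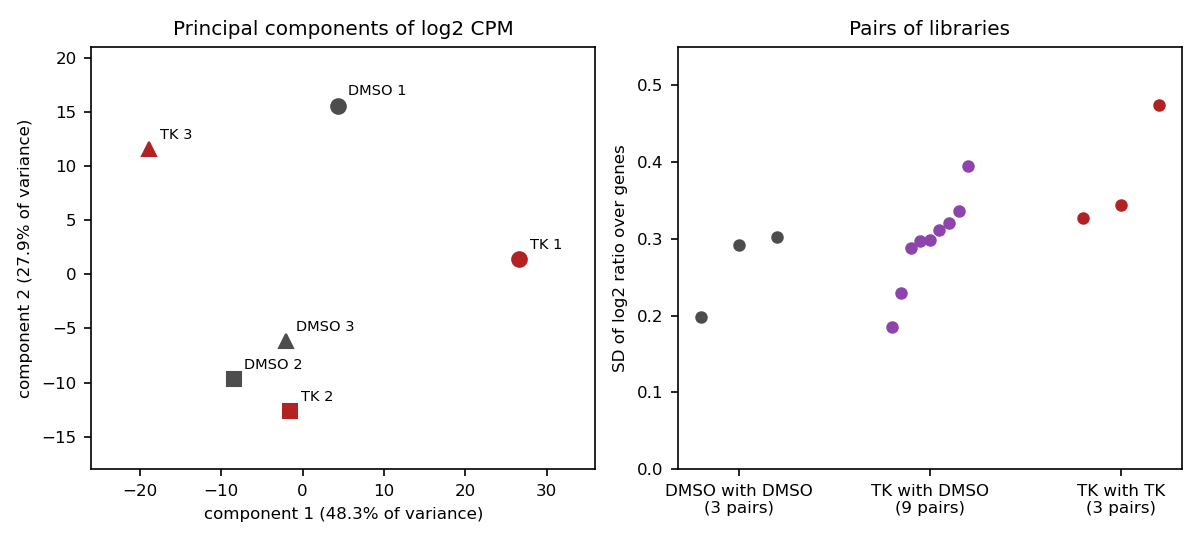
Left, scores of the 6 libraries on the first and second principal components of log2 CPM; right, SD over genes of the log2 ratio of 2 libraries (vertical axis, from 0), 1 point for each pair. DMSO libraries lie between TK replicates 1 and 3 on the first component, and pairs of TK libraries (0.327 to 0.474) differ more than pairs of DMSO libraries (0.198 to 0.303).

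The genes that spread most within a group included chemokines, HLA genes and a surface antigen. CCL17, a chemokine ligand of CCR4, had 55.6, 9.76 and 4.4 CPM in DMSO and 90.5, 12.5 and 5.67 CPM in TK. It was highest in replicate 1 and lowest in replicate 3 of both groups. CCL22, the other ligand of that receptor, had 120.4, 85.7 and 37.1 CPM in DMSO and 164, 111 and 31.6 CPM in TK, in the same order. HLA-DRA, the alpha chain of HLA-DR, had 233, 31.6 and 41.4 CPM in DMSO and 299.9, 179 and 34 CPM in TK, and ALPK2, an alpha kinase, had 11, 3.99 and 2.16 and 11.5, 2.96 and 2.18 CPM. AMPD1, an AMP deaminase, had 4.36, 7.24 and 12.1 CPM in DMSO and 1.79, 7.89 and 13.3 CPM in TK, and CD69, an early activation antigen, 9.86, 28.2 and 23.6 and 7.68, 26 and 28 CPM. For both, replicate 1 was the lowest of its group. The log2 change of CCL17 between treatments ran from -1.34 to 2.35 as each library was left out.

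**Figure D5:**
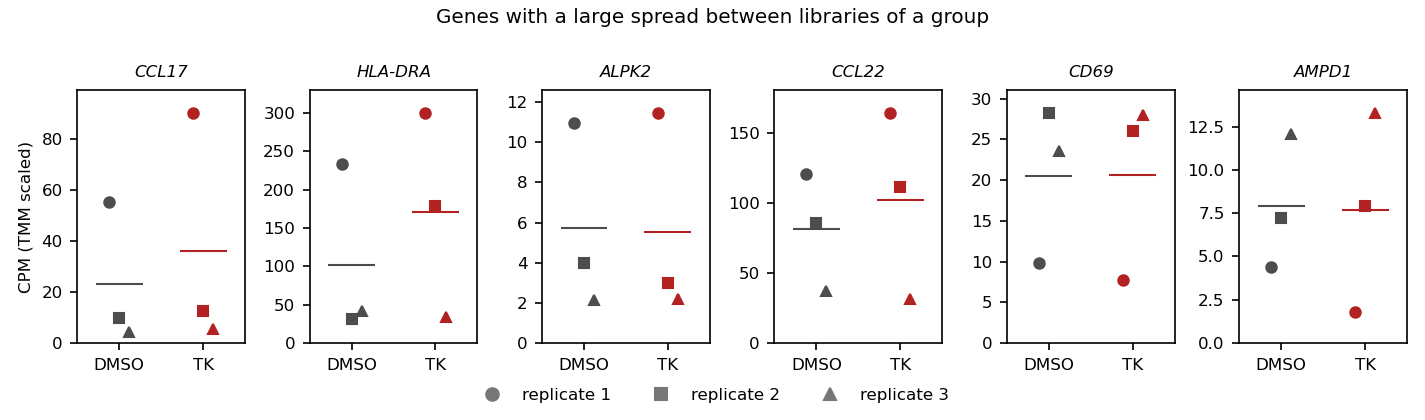
Level in CPM (vertical axes, from 0, TMM scaled) of 6 genes with a large spread between libraries, in DMSO and TK of DOHH2 at 8 h; each symbol is 1 library and horizontal lines are means of 3 libraries. Replicate 1 is the highest of its group for CCL17, HLA-DRA, ALPK2 and CCL22 and the lowest for CD69 and AMPD1, under both treatments.

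Some genes had 1 library far from the rest. C6orf48 had 84.2, 6.57 and 77.3 CPM in TK against 82.5, 55.5 and 57 in DMSO, so that TK replicate 2 lay far below the other 5. RPS18 had 3118, 3524 and 973 CPM in DMSO, where replicate 3 was the low one, and 3877, 3704 and 2916 CPM in TK. HLA-F had 44.1, 4.32 and 32.5 CPM in DMSO and 63.4, 20.5 and 39.3 CPM in TK, lowest in replicate 2 of each. B2M, the light chain of HLA class I, had 423, 380.3 and 1366 CPM in DMSO and 479, 1519.8 and 474 CPM in TK, high in DMSO replicate 3 and in TK replicate 2. The MHC class II list followed replicate 1, with library medians of 0.55, -0.34 and -0.33 in DMSO and 0.79, -0.015 and -0.40 in TK. Its median log2 change was 0.13, but -0.28 without TK replicate 1 and 0.50 without DMSO replicate 1.

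In U2932, which had its own DMSO libraries at 8 h, 0 genes (0%) passed edgeR's test for TK against DMSO, with 276 (1.67%) at an unadjusted p under 0.05. For the difference between the lines 0 genes (0%) passed, with 316 (1.92%) at an unadjusted p under 0.05. DESeq2 and limma voom also called 0 genes in both. The mitotic entry list was positive for 17 of 20 genes in DOHH2 and 18 of 20 in U2932. CDK1 differed in sign, at 0.16 (SE 0.25) and -0.034 (SE 0.27). CCNB1 had a log2 change of 0.55 (SE 0.15) in DOHH2 and 0.57 (SE 0.16) in U2932, and CDC20 one of 0.46 (SE 0.20) and 0.67 (SE 0.22). The list of kinesins was positive for 13 of 13 genes in either line, with medians of 0.19 in DOHH2 and 0.37 in U2932. UHRF1 had -0.47 (SE 0.14) in DOHH2 and 0.067 (SE 0.16) in U2932, and DANCR -0.42 (SE 0.11) and 0.011 (SE 0.13). The unadjusted p of the difference was 0.0194 for UHRF1 and 0.0193 for DANCR, and neither passed after adjustment. TUBA1B had -0.28 (SE 0.17) in DOHH2 and 0.41 (SE 0.19) in U2932, and the tubulin list was positive for 1 of 11 genes in DOHH2 and 11 of 11 in U2932. Across the 9714 genes the changes in the lines correlated with Pearson's r = 0.106 and Spearman's rho = 0.176, again over genes that are not independent.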

How the data were processed

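RNA-seq of polyadenylated RNA gave 1 count table for each of 20 libraries. The authors used STAR, HTSeq and edgeR with the genome build GRCh38.p10, per the submitters' processing notes, which name no versions. The deposited values are raw counts for 58288 genes, with 5 summary rows that were dropped. In the 6 libraries those rows held 36.8 to 43.0% of all counts. The annotation and the strand setting of the counting were not given in the sources used here. Gene positions are from GENCODE v29, which listed 16433 of the genes kept (15157 under an identical versioned identifier).

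A gene was kept where 3 or more libraries reached 0.288 CPM (counts scaled to library size), which equals 10 counts in the median library, leaving 16478 of 34160 genes with any count. The fit covered all 20 libraries and used edgeR 4.0.16 under R 4.3.3 (TMM scaling, robust quasi-likelihood F test, 1 coefficient per group, 8 groups by line, treatment and time), and p-values were adjusted by Benjamini-Hochberg over all genes kept at a threshold of 0.05. Standard errors and 95% intervals of log2 changes came from that fit. Library medians, spreads and principal components used log2 CPM with a prior count of 2. The procedure was run on simulated counts with changes of 2-fold or more in genes of at least 5 CPM and no library effects. That run does not cover smaller changes or the library effects seen here. Alternatives were other scaling, other filters, fewer libraries, a replicate block, DESeq2 1.42.0, limma 3.58.1 voom with library quality weights, and leaving out each library. Leave-one-out counts of separated groups, and the fit without DOHH2 TK 18 h replicate 1, were chosen after seeing the data.

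The genes named are the 12 higher and 12 lower genes of smallest p among those of at least 5 CPM with separated groups, the 4 largest changes of each direction among them, the key members and the 3 members of smallest p of each of 41 lists, genes called at 18 h or for a difference of changes, and the 5 genes of largest SD within each group. Not every gene the rule allows is printed. CCNB2, SRSF7, TRA2B, MAPRE1, CCL22, CD69, B2M, HLA-B, NPIPB13, IGKC and ZNRD1 fall outside it and were chosen after their values were seen. The members and lists were chosen with earlier results of these data known. Of the listed symbols, 5 for subunits of ATP synthase were not matched to the files.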

Additional observations from a re-analysis of the deposited data

Results flagged for a closer look

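2 results differed between times by a test of the difference itself. The log2 change with TK in DOHH2 was larger at 18 h than at 8 h by 1.18 for SESN1 and by 3.62 for CYP4F3, each with an adjusted p of 0.0408 (edgeR, all 20 libraries). At 8 h SESN1 had 13.6 CPM with DMSO and 13.4 CPM with TK, and CYP4F3 1.27 and 1.26 CPM (means of 3 libraries). At 18 h the means were 12.4 and 27.8 CPM for SESN1 and 0.557 and 6.99 CPM for CYP4F3. CYP4F3 is thus a gene of few counts at 8 h, where its 95% interval ran from -0.75 to 0.71.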

How the results depend on the processing

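The finding that no gene passed at 8 h held under other scaling, the filter at 50 counts, fits on DOHH2 alone or on the 6 libraries, DESeq2, limma voom and each left-out library (0 genes in each). With no filter on low counts edgeR called 32 genes, 12 higher and 20 lower, 31 of which the filter keeps. PTTG1, H1F0, HLA-C and HLA-DRA, all higher with TK, were among them. The lowest adjusted p-values were those of NPIPB13, IGKC and HLA-B, lower with TK, and of ZNRD1, higher with TK. The cause of these calls was not tested. For the difference between 18 h and 8 h the count of 2 became 58 with no filter, 1 with the filter at 50 counts, 0 with DOHH2 libraries only, 7 with DESeq2, 7 with limma voom, and 0 without each of the 6 libraries in turn or without DOHH2 TK 18 h replicate 1, where fewer libraries were fitted. SESN1 lost its call with DOHH2 libraries only and CYP4F3 with those and with the filter at 50 counts. For the difference between lines the count of 0 became 18 with no filter, and for U2932 at 8 h it became 9. The 12 genes called in DOHH2 at 18 h became 170 with no filter, 85 with DESeq2, 1968 with limma voom and 18 without DOHH2 TK 18 h replicate 1, of which 11 were among the 12.

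Replicate numbers paired the samples in part, for numbers 1 and 2 but not for 3. Deviations of same-numbered TK and DMSO libraries from their group means correlated at 0.322, 0.662 and -0.112 over 9714 genes. TK replicates 1 and 2, but not 3, correlated best with their own number. A fit with the replicate number as a block called 0 genes at 8 h and 4 for the difference between times, where SESN1 was lost.

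At an unadjusted p under 0.05, the 223 higher genes became 486 with no filter, 139 with the filter at 50 counts, 137 with DOHH2 only, 127 with the 6 libraries, 694 with limma voom and 612 without TK replicate 3. The 274 lower genes became 438, 168, 151 and 521 with no filter, DOHH2 only, the 6 libraries and limma voom. Genes wholly above DMSO numbered 275 with the filter at 50 counts, and 813 to 1979 (834 to 1688 wholly below) as each library was left out.

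Of 91 genes with a printed change, 68 kept their sign in every alternative. Signs turned for TUBB (0.025 with the block, 0.20 with voom), ETS1 (-0.021, voom), FLI1 (-0.0011, no filter), DHX9 (-0.0083 with no filter, -0.0049 at 50 counts, -0.022 with voom), MCL1 (0.012, voom), CCND3 (0.0038 with RLE scaling, 0.00041 with DOHH2 only, 0.0037 with DESeq2, 0.016 with voom) and CD69 (0.0031 with RLE scaling, 0.0073 with DOHH2 only, 0.0050 with DESeq2). As each library was left out, UBE2C ran from -0.025 to 0.067, TUBB from -0.32 to 0.42, PCNA from -0.29 to 0.10, RRM2 from -0.40 to 0.24, CDKN1A from -0.13 to 0.39, SESN1 from -0.086 to 0.033, NFKBIA from -0.072 to 0.19, JUN from -0.056 to 0.22, CYP4F3 from -0.18 to 0.090, SPIB from -0.13 to 0.34, ETS1 from -0.12 to 0.21, FLI1 from -0.046 to 0.062, DHX9 from -0.072 to 0.060, CCL17 from -1.34 to 2.35, ALPK2 from -1.13 to 0.83, AMPD1 from -0.70 to 0.42, C6orf48 from -0.63 to 0.31, BCL2 from -0.013 to 0.37, MCL1 from -0.057 to 0.048, CCL22 from -0.18 to 0.76, CD69 from -0.33 to 0.39, CCND3 from -0.22 to 0.15 and B2M from -0.60 to 1.04. Another 30 genes kept their sign but moved by over 1.5 times without 1 library, as TACC3 (0.17), AURKA (0.26), BBC3 (0.20) and CTH (0.25) did without TK replicate 1 and SPI1 (0.028) without DMSO replicate 1.

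Depth limits the genes of few counts: 75% of all genes but 99.4% of those of at least 5 CPM had an interval within 2-fold. The labels give no batch, and the number of libraries, 3 a group, limits precision for all genes.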

Other observations

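Processed pseudogenes, copies of spliced transcripts that share sequence with their parents, were more often wholly below DMSO than other genes, a class looked at after the values were seen. Of 546 kept, 8.79% were wholly below and 2.20% wholly above, with a median log2 change of -0.24, against 1.93% and 2.84% of 12980 protein-coding genes (median 0.020). The class median relative to the DMSO mean was -0.24, 0.19 and 0.081 in the DMSO libraries and -0.27, -0.19 and -0.18 in the TK libraries, so DMSO replicate 1 lay as low as TK. At 5 CPM and more, 34 remained, of which 1 was wholly below and 2 above. Their median log2 change was -0.14, and at an unadjusted p under 0.05 (edgeR) 8 were lower and 1 higher. Of 9318 protein-coding genes at that level, 33 were lower and 70 higher. Long non-coding RNAs had 6.24% of 2243 wholly below and 2.14% above. The share of all counts with no unique alignment was 29.5 to 34.3% in the DMSO libraries and 27.6 to 31.2% in the TK libraries, and its part in these values was not tested.

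The 100 genes of largest spread within the groups, among 9714 of at least 5 CPM and chosen by their values, often kept the order of the replicate numbers under both treatments. Replicate 1 was the highest of its group in both DMSO and TK for 49 of the 100, against 17.5% of the 9714, and the lowest in both for 34, against 18.1%. On chromosome 6 between 28 and 34 Mb, which holds the HLA genes, lay 14 of the 100, against 0.906% of the 9714.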
